A study of Mus musculus with 6 samples.

Results

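The mature guide arms of the miR-17-92 cluster (mmu-miR-17-5p, mmu-miR-18a-5p, mmu-miR-19a-3p, mmu-miR-20a-5p, mmu-miR-19b-3p and mmu-miR-92a-3p) and of the miR-106b-25 cluster (mmu-miR-106b-5p, mmu-miR-93-5p and mmu-miR-25-3p) were followed in the intestine of mice with experimental necrotizing enterocolitis (NEC). The prefix mmu- marks the mouse and is mostly left out hereafter. These 9 miRNAs were chosen by name, and all 9 were found among the 604 miRNAs of the authors' deposited table. Small RNA was read in 3 NEC and 3 Control libraries from the intestine of wild-type C57BL/6J pups. From day 5 after birth, NEC pups were fed 40 µl of 33% Esbilac formula by gavage every 4 h for 96 h, and every 12 h they were kept for 100 s in 99.9% N2 (hypoxia) and then for 10 min at 4 °C (cold). Control pups stayed with the dam and had neither stress. The labels also name PBS in both groups. No source used here states that the libraries are from different pups. The p-values therefore rest on the spread between these libraries alone, and that spread may be technical. The model combines formula, hypoxia and cold, whose shares in a difference cannot be told apart. The methods of the paper name the ileum as the part of the intestine taken for RNA sequencing. In pieces of whole tissue, fewer cells of a type and less of a miRNA per cell cannot be told apart either.

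Each value is a normalized log2 value as the authors deposited it, so depth is unknown, and a difference of log2 values cannot be read as a ratio of counts. The library codes in the labels have 2 different beginnings, called code series 1 (Control replicates 1 and 2, NEC replicates 2 and 3) and code series 2 (Control replicate 3, NEC replicate 1) here. The sources used here do not say what the codes stand for. Of the 386 miRNAs tested, 222 (57.5%) had an adjusted p under 0.05 between these code series in limma, with the condition as a covariate. The libraries held the markers of intestine: 8 miRNAs of intestinal epithelium made up 18.9% to 28.0% of the summed back-transformed values of a library in Control and 20.4% to 24.9% in NEC, and 6 of smooth muscle and mesenchyme 24.2% to 35.8% and 23.4% to 26.7%. Of 6 listed miRNAs of leukocytes 4 were in the table, and these, 4 of red blood cells, 3 of striated muscle and 3 of neurons summed to at most 0.187% each in any library, and miR-122-5p of liver to at most 0.00893%. Of 3 pancreas markers 1 was in the table, with a lowest log2 value of 0.73. The part of cell composition in the results was not tested.

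As background, a miRNA guides Argonaute proteins to messenger RNAs through its seed, bases 2 to 8 from its 5′ end. The miR-17-92 cluster is made from a single long transcript. It is induced by MYC and E2F factors and is best known for keeping cells dividing and alive, in part by holding down the cell cycle inhibitor p21 and the pro-apoptotic protein Bim. The miR-106b-25 cluster shares the miR-17 and miR-92 seeds with it, has no miRNA of the miR-18 or miR-19 seed, and sits in the gene of the replication helicase subunit Mcm7, and is transcribed with it. In intestine, dividing cells lie mainly in the crypts.

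On GRCm38, the 6 hairpins of miR-17-92 lie on the plus strand at chr14:115043671-115044506, within 836 bases of exon 2 of the non-coding host gene Mir17hg. The 3 hairpins of miR-106b-25 lie on the minus strand at chr5:138165321-138165818, within 498 bases of intron 13 of the Mcm7 transcript Mcm7-201. The mature sequences fall into 4 seed groups and are given 5′ to 3′ from RefSeq (GRCm38.p6) with the seed in capitals, because seeds and base composition recur in the comparisons. The seed group of miR-17, which holds 4 of the 9, was AAAGUGC.
mmu-miR-17-5p: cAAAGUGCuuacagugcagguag
mmu-miR-20a-5p: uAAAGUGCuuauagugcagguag
mmu-miR-93-5p: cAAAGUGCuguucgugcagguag
mmu-miR-106b-5p: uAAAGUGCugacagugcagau
The seed of miR-18a differs from it inside the seed.
mmu-miR-18a-5p: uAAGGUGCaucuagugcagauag
The seed group of miR-19 has 2 members, which differ by C11U (base of miR-19b-3p, position from the 5′ end, base of miR-19a-3p).
mmu-miR-19a-3p: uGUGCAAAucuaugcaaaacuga
mmu-miR-19b-3p: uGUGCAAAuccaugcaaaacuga
The seed group of miR-92 has 1 member in each cluster.
mmu-miR-92a-3p: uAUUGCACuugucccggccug
mmu-miR-25-3p: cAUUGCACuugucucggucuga
From miR-17-5p to miR-20a-5p there are 2 substitutions, C1U and C12U, counted in the same way. The sequences of miR-19b-3p and miR-92a-3p are each made a further time by a paralogous cluster, miR-106a-363, on chromosome X, so the values of these 2 miRNAs may join both loci. The sources used here do not say how the authors assigned reads of near-identical miRNAs.

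The 9 miRNAs spanned a wide range of levels. By its mean over 6 libraries miR-25-3p was the most abundant, at rank 28 of 604. It was followed by miR-92a-3p at rank 50 and miR-93-5p at rank 51, whose mean levels differed by 0.03 with an SD of 0.28 over libraries. Their order turned with the code series: miR-92a-3p lay above miR-93-5p by 0.13 to 0.35 in series 1 and below it in both libraries of series 2 (differences of -0.31 and -0.34). Next came miR-20a-5p at rank 92 and miR-17-5p at rank 99, whose mean levels were less than 1 SD of their difference apart (mean of miR-17-5p minus miR-20a-5p -0.33, SD 0.46, with -0.24 to 0.25 in series 1 and -0.91 to -0.87 in series 2), and miR-106b-5p at rank 150. The lower end held miR-18a-5p (rank 262), miR-19b-3p (rank 269) and miR-19a-3p (rank 338). Of the 9, 8 reached the minimum for testing, a log2 value of 3.32 in at least 3 libraries. The exception was miR-19a-3p, which reached it only in both libraries of code series 2.

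**Figure D1:**
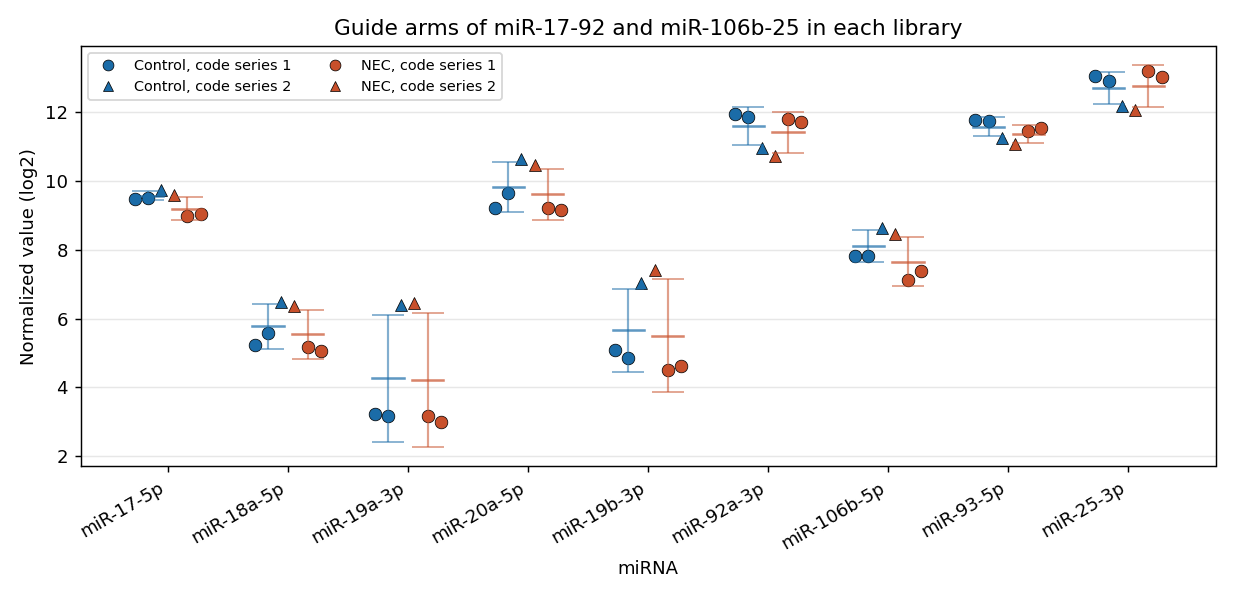
Normalized log2 value (y axis) of each guide arm (x axis) in the 6 libraries, coloured by group and shaped by code series, with horizontal lines for group means and error bars for 1 SD (n = 3). The triangles of code series 2 lay apart from the circles of code series 1, as for miR-19a-3p at 6.39 and 6.47 against 3.01 to 3.23.

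The comparison of NEC with Control asked whether these clusters shift in the injured gut. In mmu-miR-17-5p, which gives its name to the cluster, the log2 value was 9.48, 9.52 and 9.74 in Control replicates 1 to 3 and 9.59, 8.98 and 9.03 in NEC replicates 1 to 3. NEC replicates 2 and 3 lay below every Control library, and NEC replicate 1 lay between Control replicates 2 and 3. The means were 9.58 ± 0.14 and 9.20 ± 0.34 (SD, n = 3), a log2 difference of -0.38 (95% confidence interval -0.99 to 0.24, adjusted p = 0.998 from limma). Within the code series the difference was -0.49 in series 1 and -0.15 in series 2.

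The other member with a difference of this size was mmu-miR-106b-5p, the miR-17 seed relative of the Mcm7 intron. Its log2 values were 7.83, 7.83 and 8.64 in Control replicates 1 to 3 and 8.47, 7.12 and 7.38 in NEC replicates 1 to 3. As in miR-17-5p, NEC replicates 2 and 3 were the lowest of the 6 libraries. The means were 8.10 ± 0.47 and 7.66 ± 0.72 (SD, n = 3), a log2 difference of -0.44 (95% confidence interval -1.44 to 0.55, adjusted p = 0.998 from limma). It was -0.58 within code series 1, against -0.17 within series 2.

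The miRNAs miR-20a-5p and miR-93-5p share the miR-17 seed. The log2 value of mmu-miR-20a-5p was 9.23, 9.64 and 10.64 in Control replicates 1 to 3 and 10.46, 9.23 and 9.15 in NEC replicates 1 to 3, a difference of -0.23 (95% confidence interval -1.37 to 0.92). That of mmu-miR-93-5p was 11.76, 11.73 and 11.26 in Control and 11.07, 11.46 and 11.55 in NEC, a difference of -0.22 (95% confidence interval -0.85 to 0.40). Both overlapped between the groups, and in both each NEC library lay below each Control library of its own code series, although NEC replicate 2 was below Control replicate 1 by less than 0.01 for miR-20a-5p.

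For mmu-miR-18a-5p the log2 values were 5.24, 5.59 and 6.50 in Control replicates 1 to 3 and 6.37, 5.19 and 5.06 in NEC replicates 1 to 3 (difference -0.23, 95% confidence interval -1.32 to 0.86). The miR-19 group is known from mouse lymphoma as a main oncogenic part of the cluster. The values of mmu-miR-19b-3p were 5.08, 4.86 and 7.04 in Control and 7.40, 4.50 and 4.61 in NEC, a difference of -0.16 (95% confidence interval -2.25 to 1.94), which was -0.42 within code series 1 and 0.36 within series 2. Those of mmu-miR-19a-3p, which was not tested, were 3.23, 3.17 and 6.39 in Control and 6.47, 3.17 and 3.01 in NEC. For this miRNA, Control replicate 2 and NEC replicate 2 held the identical value, as these 2 libraries did in 62 of the 604 miRNAs, whereas no other pair of libraries had an identical value.

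The miR-92 seed group was the most abundant and showed no common direction. The log2 value of mmu-miR-92a-3p was 11.96, 11.86 and 10.95 in Control replicates 1 to 3 and 10.73, 11.81 and 11.71 in NEC replicates 1 to 3 (difference -0.18, 95% confidence interval -1.13 to 0.78). For mmu-miR-25-3p it was 13.04, 12.91 and 12.18 in Control and 12.05, 13.19 and 13.03 in NEC, a difference of 0.05 (95% confidence interval -0.87 to 0.96), which was 0.13 within code series 1 and -0.13 within series 2. The means of both miRNAs differed less between the groups than the SD within either group.

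None of the 8 members tested passed an adjusted p under 0.05 in limma, where 0 of 386 miRNAs (0%) did. At an unadjusted p under 0.05 there were 0 members and 11 miRNAs in all (2.85%), 7 of them higher (1.81%) and 4 lower (1.04%) in NEC, and the Control and NEC values of 0 members and of 38 miRNAs (9.84%) did not overlap. The mean was lower in NEC in 5 of the 5 tested members of miR-17-92 and in 2 of the 3 of miR-106b-25, against 48.2% of all miRNAs tested. The untested miR-19a-3p had a difference of -0.05. Within code series 1, both NEC libraries lay below both Control libraries in 7 of the 8 members tested, as in 23.6% of all miRNAs tested. Of the 8, 6 were lower in NEC within both code series (33.4% of all miRNAs tested), and the same 6 had every NEC library below every Control library of its own code series, which held for 18.1% of all miRNAs tested. The median log2 difference was -0.23 over the 5 tested members of miR-17-92 and -0.22 over the 3 of miR-106b-25, beside 0.01 over all miRNAs tested. The members share transcripts and libraries and are not independent.

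When code series was added to limma as a covariate, a fit in which the log2 differences are unchanged and their errors smaller, miR-17-5p had an unadjusted p of 0.0307 (standard error 0.14) and miR-106b-5p of 0.0238 (standard error 0.16). In both the 95% confidence interval lay below 0, from -0.71 to -0.05 and from -0.81 to -0.08. They were among 70 miRNAs (18.1% of those tested) with a p under 0.05 in this fit, of which 33 (8.55%) were lower in NEC, and neither passed adjustment in limma (adjusted p = 0.255 for both). The other 6 had an unadjusted p of 0.127 or more. When each library was left out in turn from this fit, the unadjusted p of miR-17-5p was 0.0297 to 0.113 and under 0.05 in 2 of 6 cases, and that of miR-106b-5p was 0.0177 to 0.0749 and under 0.05 in 3 of 6. For miR-17-5p it went over 0.05 without Control replicate 1 or 2 or NEC replicate 2 or 3, and for miR-106b-5p without Control replicate 1 or 2 or NEC replicate 2. Without Control replicate 3 or NEC replicate 1, code series 2 keeps 1 library, and the fit compares code series 1 alone. These 2 cases are not separate results (difference -0.49 in both for miR-17-5p and -0.58 for miR-106b-5p). They are the 2 under 0.05 for miR-17-5p and 2 of the 3 for miR-106b-5p.

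**Figure D2:**
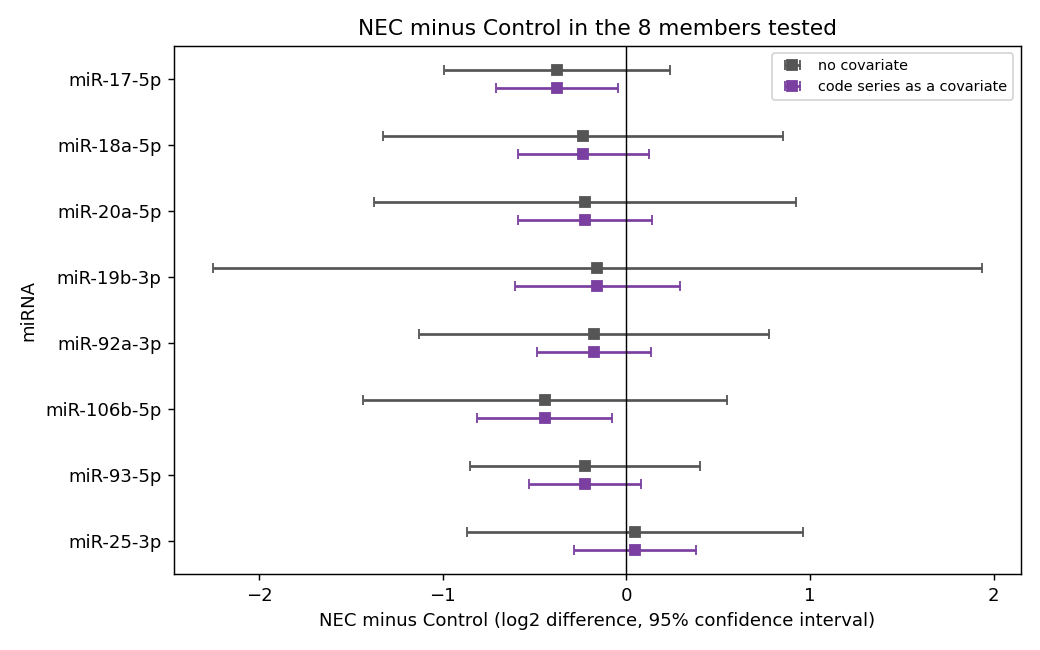
Log2 difference of NEC minus Control (x axis, squares) with its 95% confidence interval (bars) for the 8 members tested (y axis), in limma without a covariate and after adding code series. The differences are the same in both fits, and with the covariate the interval ended below 0 for miR-17-5p (-0.71 to -0.05) and miR-106b-5p (-0.81 to -0.08).

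The members differed between the code series in opposite directions. For miR-17-5p the size of this log2 difference (0.41) was close to that of NEC minus Control (-0.38), and for the others it was larger than that of NEC minus Control. All 8 tested members passed an adjusted p under 0.05 (limma with the condition as a covariate), beside the 57.5% of all miRNAs given above. Of the 8, 5 were higher in code series 2 (25.4% of all miRNAs tested) and 3 lower (32.1%). In code series 2, miR-19b-3p was higher by a log2 difference of 2.46 (95% confidence interval 1.98 to 2.94, adjusted p = 0.000123). Likewise miR-20a-5p was higher by 1.24, miR-18a-5p by 1.16, miR-106b-5p by 1.02 and miR-17-5p by 0.41. In contrast, the log2 difference was -0.99 for miR-92a-3p, -0.93 for miR-25-3p and -0.46 for miR-93-5p. The untested miR-19a-3p was higher by 3.29, the 4th highest such difference of the 604 miRNAs. In none of these 9 did the libraries of one series overlap those of the other. How often this held among all miRNAs tested was not counted. Markers moved with the code series in both directions. The 4 leukocyte miRNAs in the table, of 6 listed, summed to 0.0402% to 0.0577% in series 1 and 0.0171% to 0.0198% in series 2, and the 6 of smooth muscle and mesenchyme to 26.5% to 35.8% and 23.4% to 24.2%. In the other direction, 2 miRNAs of endothelium summed to 1.52% to 2.05% in series 1 and 2.09% to 2.46% in series 2, and 3 of striated muscle to 0.0900% to 0.109% and 0.137% to 0.187%. These sums weigh abundant miRNAs most, and the members of a list did not all move alike. At an adjusted p under 0.05 in the same limma fit, 1 striated muscle miRNA was higher in series 2 and 1 lower. Of 8 epithelium miRNAs, 5 were higher and 1 lower. Of the leukocyte and of the smooth muscle and mesenchyme miRNAs, 2 each were lower and 0 higher, and the 2 of endothelium were higher. The part of these markers in the differences was not tested.

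The members' order in this difference followed the base composition of the mature sequence. The lowest GC content was 34.8% in miR-19a-3p, followed by 39.1% in miR-19b-3p and miR-20a-5p, and these 3 had the highest differences. It was 42.9% in miR-106b-5p, 43.5% in miR-18a-5p and 47.8% in miR-17-5p, and it was 50.0% or more in the 3 members that were lower in code series 2, up to 57.1% in miR-92a-3p. Spearman's rho between GC content and the log2 difference was -0.96 across the 9 members and -0.40 across the 340 tested miRNAs with a RefSeq sequence, as a description across miRNAs that share the same 6 libraries. Among those 340, the median difference was 0.84 for the 55 with a GC content under 40% and -0.56 for the 43 at 60% or above. GC content was examined after the differences had been seen, and its part in them was not tested. In the miR-17 seed group, the miR-17-5p and miR-20a-5p sequences printed above differ only by C1U and C12U, yet their levels were 0.24 below to 0.25 above each other in code series 1, and in code series 2 miR-17-5p lay below miR-20a-5p by 0.91 and 0.87.

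**Figure D3:**
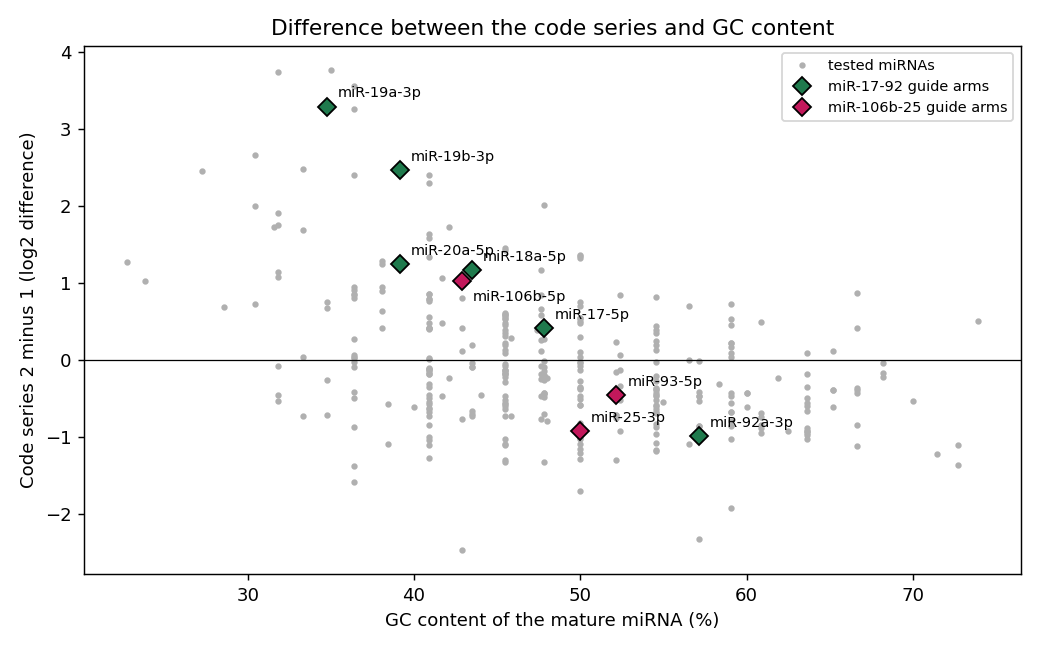
Log2 difference of code series 2 minus 1 (y axis) against the GC content of the mature miRNA in percent (x axis), for tested miRNAs with a RefSeq sequence (grey points, n = 340) and the 9 guide arms (diamonds). Guide arms with low GC content lay high, from miR-19a-3p at 34.8% and 3.29, and those with high GC content lay low, down to miR-92a-3p at 57.1% and -0.99.

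The makeup of each cluster therefore depended on the code series. In code series 1, miR-92a-3p made up 69.7% to 75.4% of the back-transformed sum of the 6 miR-17-92 guide arms, miR-20a-5p 11.2% to 14.9% and miR-17-5p 10.6% to 13.8%. In code series 2, miR-92a-3p made up 41.8% in Control replicate 3 and 40.2% in NEC replicate 1, and miR-20a-5p 33.7% and 33.4%. In miR-106b-25, miR-25-3p held 67.9% to 76.0% in code series 1 and 62.0% and 62.9% in code series 2. The log2 of the cluster sum was 12.33 ± 0.10 in Control and 12.13 ± 0.09 in NEC for miR-17-92 (SD, n = 3), and 13.30 ± 0.38 and 13.27 ± 0.47 for miR-106b-25. For miR-17-92 the groups overlapped, with 12.21 in Control replicate 3 and 12.22 in NEC replicate 2. As a share of the back-transformed total, the miR-17-92 sum was 0.223% to 0.356% in Control and 0.198% to 0.306% in NEC. These sums are descriptions without a test. The 9 guide arms together took 0.888%, 1.11% and 0.576% of the back-transformed total in Control replicates 1 to 3 and 0.514%, 1.10% and 0.922% in NEC replicates 1 to 3.

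**Figure D4:**
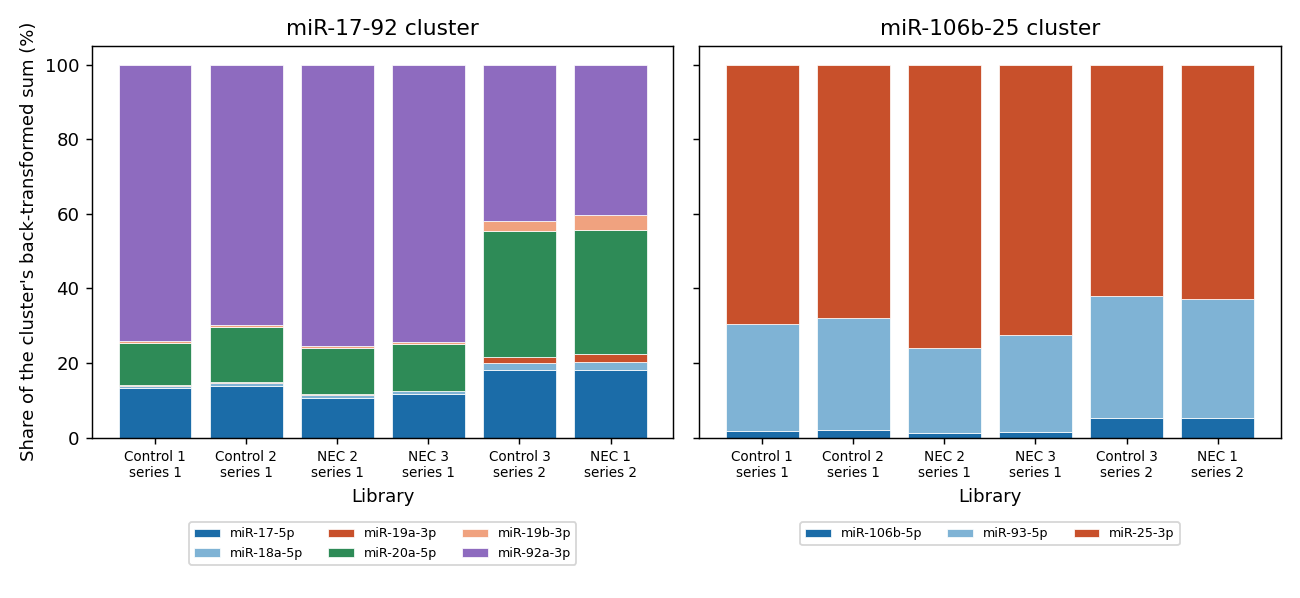
Share of each guide arm in the back-transformed sum of its cluster in percent (y axis, stacked bars), in the 4 libraries of code series 1 and the 2 of code series 2 (x axis). The share of miR-92a-3p was 69.7% to 75.4% in code series 1 and 40.2% to 41.8% in code series 2, and within series 1 it was 74.3% and 75.4% in NEC and 69.7% and 74.1% in Control.

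Some members kept a nearly fixed distance in every library. The log2 value of miR-20a-5p lay above that of its neighbour miR-18a-5p by 3.99 to 4.14 (mean 4.07, SD 0.053, n = 6), although each moved by more than 1 between the code series. For miR-25-3p and miR-92a-3p, of different clusters and 1 seed, the difference was 1.12 ± 0.10 in Control and 1.34 ± 0.04 in NEC (SD, n = 3), with values of 1.08, 1.05 and 1.23 against 1.32, 1.38 and 1.32, so the groups did not overlap. This pair was noticed among others after its values were seen, and no test was made. How many pairs of miRNAs separate the groups was not counted. The groups also did not overlap in the difference of miR-92a-3p and miR-92a-1-5p, with 7.52 to 8.42 in Control and 7.10 to 7.47 in NEC. Cluster neighbours could also part: miR-92a-3p lay above miR-19b-3p by 6.88 to 7.31 in code series 1 and by 3.91 and 3.33 in code series 2.

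Of the 9 opposite arms of these hairpins, which are usually degraded as passengers, 8 were in the table and 3 reached the minimum for testing. Beside miR-106b-5p, its opposite arm miR-106b-3p was the more abundant in every library, with log2 values of 10.65, 10.37 and 9.67 in Control replicates 1 to 3 and 9.56, 10.79 and 10.45 in NEC replicates 1 to 3. The level of the 5p arm lay 2.53 to 3.68 below it in code series 1 and 1.03 and 1.09 below it in code series 2, so the arm named as the guide was not the dominant arm here. The difference of NEC minus Control was 0.04 for miR-106b-3p and -0.44 for miR-106b-5p. The level of miR-106b-3p instead kept a nearly fixed distance to miR-25-3p of the same intron (mean -2.49, SD 0.076, n = 6). This was not particular to the intron. After each profile was centred over the 6 libraries, miR-92b-3p of chromosome 3 lay closer to miR-25-3p. Its root mean square distance was 0.061 on the log2 scale, against 0.069 for miR-106b-3p.

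The arm miR-17-3p had log2 values of 4.70, 4.57 and 4.53 in Control replicates 1 to 3 and 4.52, 3.95 and 3.92 in NEC replicates 1 to 3, so that every NEC library lay below every Control library. The log2 difference was -0.48 (95% confidence interval -1.08 to 0.13, adjusted p = 0.998 from limma), close to the -0.38 of miR-17-5p, and the unadjusted p was 0.107 in this fit and 0.0294 after code series was added. In one direction, with NEC below, groups that do not overlap were found in 4.92% of all miRNAs tested. For miR-92a-1-5p, of the chromosome 14 copy of miR-92a, the values were 3.54, 3.88 and 3.43 in Control and 3.63, 4.41 and 4.24 in NEC. This log2 difference was 0.47 (95% confidence interval -0.21 to 1.16), against -0.18 for miR-92a-3p, with an unadjusted p of 0.0236 in the fit with the code series and an adjusted p of 0.255 from limma. The other 5 arms in the table (miR-18a-3p, miR-20a-3p, miR-19b-1-5p, miR-93-3p and miR-25-5p) lay between 0.51 and 3.78.

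Outside the clusters, 6 miRNAs of the table shared a seed with a member, and 4 of them come from miR-106a-363. This cluster on chromosome X is a paralogue of miR-17-92. Its miR-106a-5p differs from miR-17-5p by U10A and its miR-20b-5p by U10C and C12U, and its miR-363-3p shares the seed of miR-92a-3p. The last sequence, miR-32-5p of chromosome 4, is shown for its low GC content and differs from miR-92a-3p at 10 of the 21 bases compared.
mmu-miR-106a-5p: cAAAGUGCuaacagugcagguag
mmu-miR-20b-5p: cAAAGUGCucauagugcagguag
mmu-miR-363-3p: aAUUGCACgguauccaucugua
mmu-miR-32-5p: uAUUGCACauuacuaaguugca
The miR-106a-363 miRNAs lay lower than miR-17-5p and did not follow it. The log2 value of miR-20b-5p was 5.91, 6.79 and 5.55 in Control replicates 1 to 3 and 6.76, 6.48 and 6.25 in NEC replicates 1 to 3. For miR-363-3p it was 5.58, 6.60 and 5.62 in Control and 6.61, 6.69 and 6.07 in NEC, and for miR-106a-5p 5.04, 5.66 and 4.68 against 5.72, 5.33 and 5.16. In all 3, Control replicates 1 and 3 were the lowest libraries. The log2 differences were 0.41 (95% confidence interval -0.44 to 1.26), 0.53 (-0.31 to 1.36) and 0.28 (-0.48 to 1.04), each with an adjusted p of 0.998 from limma. They were 1.21, 0.99 and 1.04 in code series 2, where there is 1 library a group, and 0.01, 0.29 and -0.10 in code series 1. Unlike the 8 tested members, these 3 did not pass an adjusted p between the series (adjusted p = 0.635 to 0.792 from limma), where 57.5% of all miRNAs tested did. This contrast between the clusters was not itself tested. These 3 also lay off the order by GC content seen in the members. The series difference was -0.20 for miR-20b-5p and -0.10 for miR-106a-5p, against 0.41 for miR-17-5p, all with a GC content of 47.8%. It was -0.12 for miR-363-3p (40.9%), against 1.02 for miR-106b-5p (42.9%). The untested miR-18b-5p of the same cluster was higher in series 2 by 1.17, near the 1.16 of miR-18a-5p (GC content 43.5% in both). Not tested were miR-18b-5p, at 4.16 in NEC replicate 1 and 2.05 to 2.77 in the others, with the identical value of 2.53 in Control and NEC replicate 2, and miR-363-5p, at 2.65 to 3.19 in Control and 3.27 to 4.02 in NEC. The remaining 5 listed miRNAs of this cluster were not analysed here.

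The other 2 seed relatives belong to the miR-92 group. The level of miR-92b-3p, whose GC content is 63.6%, followed miR-25-3p and miR-92a-3p: it was 6.27, 6.25 and 5.47 in Control replicates 1 to 3 and 5.24, 6.36 and 6.25 in NEC replicates 1 to 3. That of miR-32-5p, whose GC content is 31.8%, was 5.47, 5.73 and 9.52 in Control and 9.19, 5.61 and 5.66 in NEC. Its log2 difference between code series 2 and 1 was 3.74 (95% confidence interval 3.36 to 4.12), the 2nd highest of the 604 miRNAs. Between NEC and Control the log2 differences of these 2 miRNAs were -0.05 and -0.09.

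**Figure D5:**
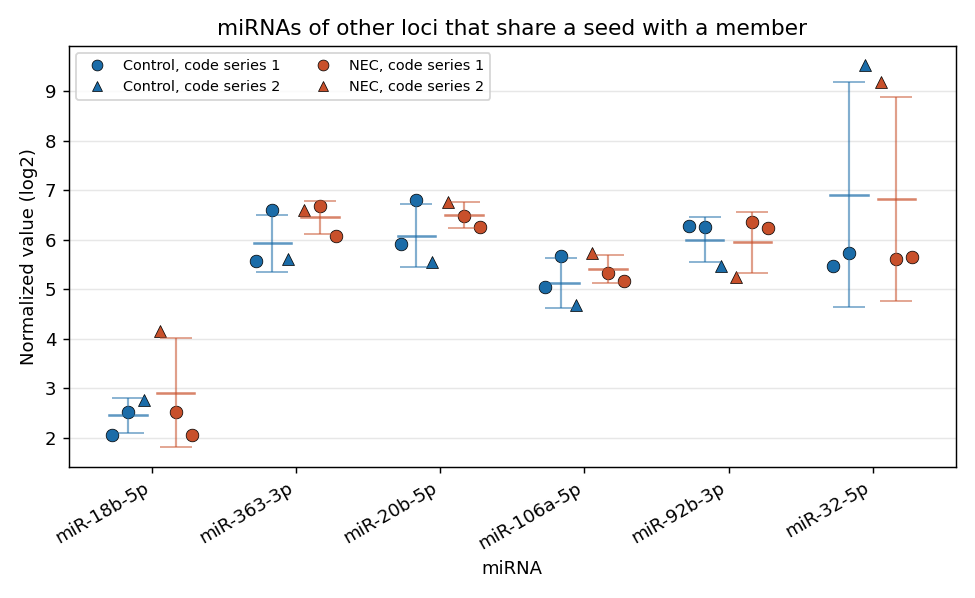
Normalized log2 value (y axis) of the 6 seed relatives from other loci (x axis) in each library, coloured by group and shaped by code series, with group means and 1 SD (n = 3). The level of miR-32-5p was 9.19 and 9.52 in code series 2 and 5.47 to 5.73 in code series 1, and miR-20b-5p, miR-363-3p and miR-106a-5p were low in Control replicates 1 and 3.

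MYC, which induces miR-17-92, is known from human and mouse B cells to repress another group of miRNAs that restrain growth, let-7 among them. Of 19 such miRNAs, all were in the table and 17 were tested. None passed an adjusted p in limma, and 16 were lower and 1 higher in NEC, where 48.2% of all miRNAs tested were lower, with a median log2 difference of -0.30 (-0.32 in code series 1 and -0.11 in code series 2). At an unadjusted p under 0.05 there were 2, miR-150-5p and miR-195a-5p, both lower in NEC and chosen by the study on these libraries. Of all miRNAs tested, 2.85% passed this in either direction and 1.04% were lower in NEC. Once code series was added there were 4, all lower, beside 18.1% of all miRNAs tested in either direction and 8.55% lower in NEC. Among the most abundant, the log2 difference was -0.16 (standard error 0.25) for let-7g-5p, -0.01 (standard error 0.31) for let-7f-5p, -0.49 (standard error 0.36) for miR-26a-5p and -0.17 (standard error 0.38) for let-7a-5p. Both the guide arms and this list thus had mostly negative differences, and no test compared them.

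Among tested miRNAs outside the clusters, those with the profile most like the mean of miR-17-92 over the 6 libraries were miR-467e-5p, miR-872-5p, miR-190a-5p, miR-3068-5p and miR-16-1-3p. Their root mean square distance from it, after each profile was centred, was 0.09 to 0.20 on the log2 scale. For miR-106b-25 they were miR-103-3p, miR-181d-5p, miR-598-3p, miR-30c-5p and miR-361-5p, at 0.06 to 0.11. The first 5 were all higher in code series 2, by 1.06 to 1.32 on the log2 scale. For the 5 like miR-106b-25 this difference was -0.18 to -0.04. The mean of miR-106b-25 joins members that moved in opposite directions, by 1.02 for miR-106b-5p, -0.46 for miR-93-5p and -0.93 for miR-25-3p. So does the mean of miR-17-92, with -0.99 for miR-92a-3p, 2.46 for miR-19b-3p and 3.29 for the untested miR-19a-3p.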

How the data were processed

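Small RNA libraries (3 NEC, 3 Control) from NEBNext reagents were sequenced to 50 nt from one end. Per the labels the build is mm10. The authors deposited normalized log2 values of 604 miRNAs, matched to the samples by library code with 0 columns left over. The sources used here name no aligner, counting tool or transformation, so depth is unknown. Values were compared as deposited with limma 3.58.1 (R 4.3.3, two-sided, Benjamini-Hochberg adjustment) over 386 miRNAs with at least 3.32 (log2 of 10) in at least 3 libraries. The code series as a covariate, code series 1 alone, a replicate block, other scalings, filters, variance models, an added constant of 1 and leaving out each library were alternatives. The fit was tested on simulated data. Named were all members, their opposite arms, relatives and paralogues, up to 4 abundant miRNAs of the MYC list and 5 like profiles per cluster. Members and lists were chosen with earlier results of these data known. Sequences came from RefSeq (GRCm38.p6), which matched 526 of 604 miRNAs, and host genes from GENCODE M21.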

Additional observations from a re-analysis of the deposited data

How the results depend on the processing

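Over 24 alternatives each, miR-17-5p, miR-106b-5p and miR-93-5p had a lower mean in NEC under every one, and no member tested passed an adjusted p under 0.05 in any of them. With all libraries kept, the covariate, the replicate block, the filters and the variance models leave the difference itself unchanged. The same direction under these was therefore fixed in advance. Leaving out 1 library, with or without the covariate, gave differences of -0.57 to -0.27 for miR-17-5p, -0.65 to 0.13 for miR-18a-5p, -1.18 to 1.01 for miR-19a-3p, -0.65 to 0.18 for miR-20a-5p, -1.11 to 0.53 for miR-19b-3p, -0.50 to 0.17 for miR-92a-3p, -0.85 to -0.17 for miR-106b-5p, -0.39 to -0.08 for miR-93-5p and -0.22 to 0.40 for miR-25-3p. Leaving out a library together with the covariate was chosen after seeing the data. With no covariate, leaving out 1 library unbalances the code series. When each library was scaled to the same total without the 10 most abundant miRNAs, the difference of miR-19a-3p was 0.0093. The count of miRNAs at an unadjusted p under 0.05 was 11, and became 70 after adding code series as a covariate, 66 in code series 1 alone, 21 with no filter, 17 with the scaling named above, 3 with the replicate number as a block, and 3 to 68 when 1 library was left out. At an adjusted p under 0.05 the count was 0, with 2 in code series 1 alone and 0 to 2 when 1 library was left out. The 2 appeared without Control replicate 3 or NEC replicate 1 in the fit with the covariate, which then compares code series 1 alone. Whether the replicate numbers pair the samples could not be told. The deviations of same-numbered libraries correlated at -0.69, 0.73 and -0.78, but these deviations still held the code series difference. Replicates 1 and 3 join libraries of different code series, and replicate 2 joins libraries of the same one. Control replicate 3 and NEC replicate 1, both of code series 2, correlated at 0.87. No count-based interval could be given without depth.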
